A study of Mus musculus with 6 samples.

Results

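Platelets attach to damaged or inflamed vessel walls through a small set of surface receptors, and 7 genes of that adhesion step were followed in RNA of whole mouse lungs: Gp1ba, Gp1bb, Gp5 and Gp9, which encode the subunits of the GPIb-IX-V receptor, Itga2b and Itgb3, which encode the platelet fibrinogen receptor (integrin alpha-IIb with its beta subunit, also called GPIIb/IIIa), and Vwf, which encodes their ligand von Willebrand factor. The genes were chosen by name, with earlier results of these data known, and each matched exactly 1 of the 35275 Ensembl gene rows. Balb/c mice had been injected through the tail vein with 250000 4T1 cells, a Balb/c mammary tumour line that seeds the lung. The cells were either unmodified (4T1.WT, 3 libraries, called WT) or lacked PD-L1, the ligand of the checkpoint receptor PD-1 (4T1.PD-L1 KO, 3 libraries, called KO). The knockout is in the injected cells, and the labels name no edited allele in the host mice. All lungs were taken at day 7 after perfusion with 20 mL of PBS, which washes blood out of the vessels. The sources used here do not state the age or sex of the mice, how many mice stand behind each library or how many KO clones were used, so the tests measure only how these samples vary. No lungs without tumour cells are among the samples, so WT lungs are the only baseline.

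Von Willebrand factor is a very large multimeric protein made by endothelial cells, which store it in Weibel-Palade bodies, and by megakaryocytes, which pack it into platelet alpha-granules. When it is stretched on exposed collagen or on activated endothelium under flow, an A domain of it binds GPIb alpha, the ligand-binding subunit of the GPIb-IX-V complex, and slows the platelet. GPIb beta and GPIX hold that complex together at the surface, GPV is its most loosely attached subunit, and the activated integrin then fixes the platelet by binding fibrinogen and von Willebrand factor. Itga2b, Gp9, Gp5, Gp1ba and Gp1bb are expressed mostly in megakaryocytes and platelets, whereas the beta subunit encoded by Itgb3 also pairs with alpha-V on endothelial cells, macrophages and tumour cells. In mice the lung itself holds megakaryocytes that release platelets, so lung RNA can carry platelet transcripts from resident megakaryocytes as well as from platelets left in the vessels.

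Promoters of megakaryocyte genes are known for paired GATA and ETS motifs, the binding letters of the transcription factors that drive megakaryocyte development. Sequences are shown for 3 subunit genes of the GPIb complex because all 3 have both motifs close to the start. In the 250 bases before the start, Gp1bb, the remaining subunit gene, had neither of the motifs searched for. Itga2b had AGGAAG but no GATAA there. Each line gives the 160 bases before the RefSeq start in GRCm38.p6, 5′ to 3′ in the direction of transcription, at chr11:70638962-70639121 (plus strand), chr16:30310782-30310941 (minus strand) and chr6:87777910-87778069 (plus strand). Capitals mark GATAA or its reverse complement TTATC, and AGGAAG or its reverse complement CTTCCT.
Gp1ba: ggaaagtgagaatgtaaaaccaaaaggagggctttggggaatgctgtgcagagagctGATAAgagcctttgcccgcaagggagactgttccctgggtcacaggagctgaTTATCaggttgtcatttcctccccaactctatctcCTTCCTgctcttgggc
Gp5: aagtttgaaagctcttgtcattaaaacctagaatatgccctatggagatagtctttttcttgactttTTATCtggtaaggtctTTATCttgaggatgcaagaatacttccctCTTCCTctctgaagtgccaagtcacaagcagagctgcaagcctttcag
Gp9: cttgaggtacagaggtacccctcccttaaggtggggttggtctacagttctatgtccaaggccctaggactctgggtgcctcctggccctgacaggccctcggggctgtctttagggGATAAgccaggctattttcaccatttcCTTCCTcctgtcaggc
Gp1ba holds GATAA at 103 to 99 bases upstream and its reverse complement at 51 to 47, Gp5 holds the reverse complement at 93 to 89 and at 77 to 73, and Gp9 holds GATAA at 43 to 39. The reverse complement of AGGAAG lies 16 to 11 bases upstream of the start in both Gp1ba and Gp9, and 48 to 43 bases upstream in Gp5. RefSeq promoters were matched for 5 of the 7 genes (not for Itgb3 and Vwf). In the 250 bases before the start, GATAA on either strand occurred in 3 of these 5 and in 22.6% of 32851 promoters, and AGGAAG in 4 of 5 and in 29.5%. The 2 motifs share no position, and these matches are a description of letters, chosen with the sequences in view.

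Libraries held 14711459 to 16932114 counts over 17520 to 19156 detected genes, and a count of 0 allows up to 0.177 to 0.204 CPM (3 counts over the library total, covering counting error only; CPM is the usual count scaled to library size). Over all genes, 15191 were tested for KO minus WT with edgeR's quasi-likelihood test (Benjamini-Hochberg threshold 0.05), of which 170 were higher and 51 lower in KO lungs. These counts moved with single libraries, from 22 higher and 2 lower without WT replicate 2 to 404 higher and 174 lower without KO replicate 1. Cd274, the gene of PD-L1, was at 53.6 to 74.3 CPM in WT and 97.5 to 300.5 CPM in KO libraries. Every KO library thus lay above every WT library, the opposite direction to a loss of the gene. With KO lungs at 313% of the WT level, Cd274 was still not called over all genes (adjusted p = 0.161 by edgeR). Host cells keep the gene, so its level in whole lungs does not check the labels.

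Of the 7 genes, Vwf fell in KO lungs and the other 6 did not pass the test. Itga2b and Gp9 were lower in all 3 KO than in all 3 WT libraries, at 51.2% and 19.9% of the WT level, but neither passed (edgeR adjusted p of 0.0581 and 0.0917). Gp1ba, Gp1bb and Gp5 rested on few reads and overlapped between the groups, and Itgb3 had similar means. The 4 genes that met the filter on low counts in both groups (Vwf, Itgb3, Itga2b, Gp1ba) had log2 differences of -0.97 to -0.10. Gp9, Gp1bb and Gp5 were also lower in KO lungs, but met that filter through the WT libraries, so their direction is no support. Lower calls made up 0.336% of all genes tested (1 of these 7) and higher calls 1.12% (0 of these 7). Complete separation with KO below WT was seen in 9.4% of all genes tested (3 of these 7). In RNA of a whole organ, fewer cells of a type and less RNA per cell cannot be told apart.

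**Figure D1:**
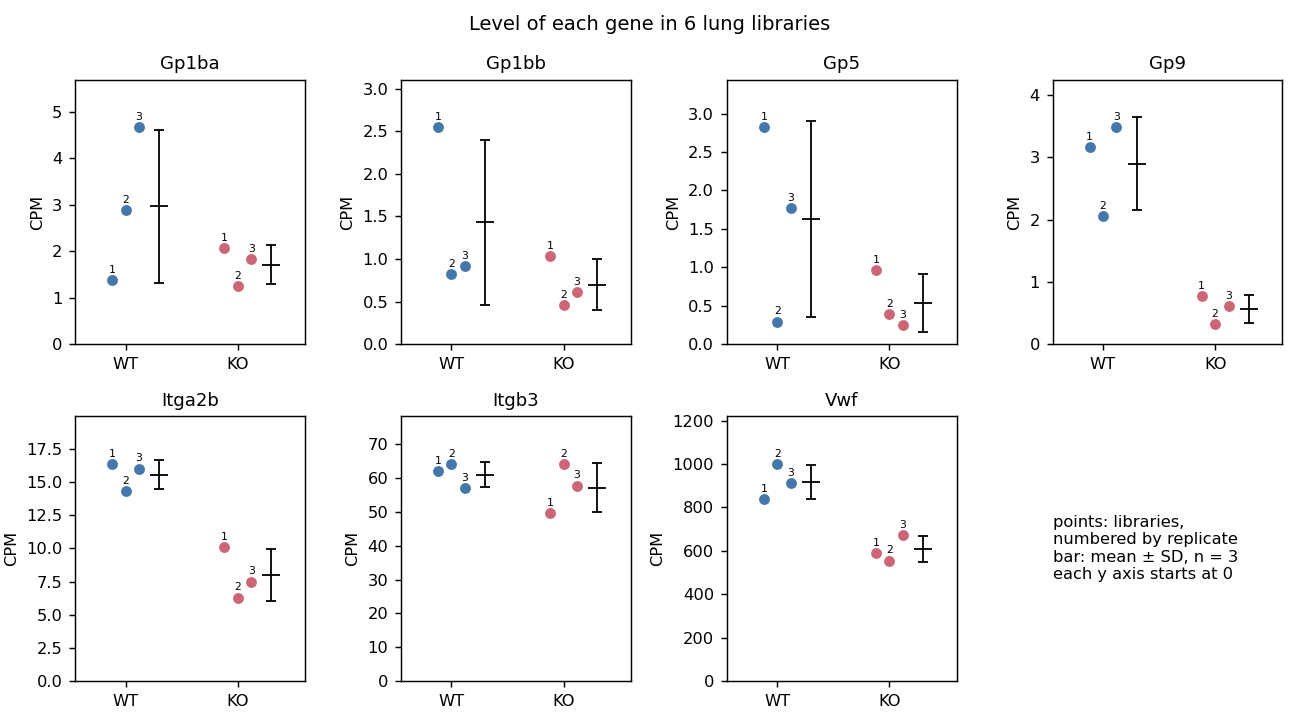
Level of each gene in CPM in the 3 WT and 3 KO libraries, numbered by replicate, with the mean and SD beside the points. Vwf, Itga2b and Gp9 are separated between the groups, and the other 4 genes overlap.

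The ligand gene is described first. Vwf (ENSMUSG00000001930, GRCm38 chromosome 6, 125546774 to 125686679, plus strand, 16064 exonic bases) had 12216, 17026 and 13901 counts in WT replicates 1 to 3 and 9182, 8473 and 11026 counts in KO replicates 1 to 3. Scaled to library size this was 839.8, 999.8 and 912 CPM in WT against 591, 555 and 672 CPM in KO lungs. The highest KO library thus stayed below the lowest WT library. The mean fell from 917 ± 80.1 to 606 ± 60.0 CPM (SD, n = 3 per group), a change of -0.60 ± 0.11 on the log2 scale (SE; adjusted p = 0.0224 by edgeR), and the level fell by 33.9%. The call was lost without WT replicate 1, WT replicate 2 or KO replicate 2 (edgeR adjusted p of 0.0658, 0.116 and 0.173), while the log2 fold change stayed between -0.68 and -0.53 in all 16 alternatives.

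The 2 integrin genes gave different values. Itga2b (ENSMUSG00000034664, chromosome 11, 102453297 to 102470122, minus strand, 5454 exonic bases) encodes the alpha-IIb chain and is a standard marker of the megakaryocyte lineage. It had 238, 244 and 244 counts in WT and 157, 96 and 123 in KO libraries, or 16.4, 14.3 and 16.0 CPM against 10.1, 6.29 and 7.50 CPM. The WT libraries were close to each other, and all 3 KO libraries lay below them. The mean was 15.6 ± 1.09 CPM in WT lungs against 7.97 ± 1.95 CPM in KO, giving a log2 difference of -0.97 ± 0.23 with a 95% interval of -1.47 to -0.46, which did not pass over all genes (edgeR adjusted p = 0.0581). It passed without the filter on low counts (0.00624), with DESeq2 (0.0065) and without KO replicate 1 (0.0207), and its adjusted p ranged from 0.00624 to 0.254 over the alternatives.

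Itgb3 (ENSMUSG00000020689, chromosome 11, 104608000 to 104670476, plus strand, 5901 exonic bases) encodes the beta chain of that integrin. It had 903, 1092 and 868 counts in WT and 771, 979 and 948 in KO libraries, which is 62.1, 64.1 and 57.0 CPM against 49.6, 64.2 and 57.8 CPM. The groups overlapped, with the lowest and the highest value both in KO lungs. The log2 difference was -0.10 ± 0.13 (edgeR adjusted p = 0.798), with a 95% interval of -0.37 to 0.18, so a decrease as large as the estimate for Itga2b lies outside its interval. Whether the 2 chains differed in their change was not tested. Among 7 other integrin genes that outside platelets pair with this beta chain or occur beside it, none passed the test and the median log2 difference was -0.05. The alpha-V gene Itgav, named here after its values were seen because it is the other partner of this beta chain, averaged 79.0 ± 7.98 CPM in WT lungs against 76.6 ± 10.8 CPM in KO. Itgb5 had a log2 difference of -0.32 ± 0.10, Itga1 of -0.23 ± 0.11 and Itgb6, an epithelial integrin chain, of -0.27 ± 0.19 (edgeR adjusted p of 0.162, 0.37 and 0.552).

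Within the GPIb-IX-V complex, Gp9 had the lowest estimate. Gp9 (ENSMUSG00000030054, chromosome 6, 87778072 to 87779768, plus strand, 881 exonic bases) encodes GPIX, which is needed for the complex to reach the surface. Its counts were 46, 35 and 53 in WT and 12, 5 and 10 in KO libraries. The lowest WT library therefore held close to 3 times the reads of the highest KO library. The level was 2.90 ± 0.747 CPM in WT lungs against 0.570 ± 0.225 CPM in KO. The log2 difference was -2.33 ± 0.63, with a 95% interval of -3.69 to -0.97, and did not pass (edgeR adjusted p = 0.0917). Gp9 met the filter on low counts in 3 WT libraries and 1 KO library. It thus entered the test through the group in which it was higher, so its direction is no support. Gp9 passed without the filter on low counts (edgeR adjusted p = 0.0326), its adjusted p ranged up to 0.291 over the alternatives, and DESeq2 gave it no adjusted p.

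Gp1ba (ENSMUSG00000050675, chromosome 11, 70639122 to 70642036, plus strand, 2718 exonic bases) encodes the subunit that binds von Willebrand factor. Its counts were 20, 49 and 71 in WT and 32, 19 and 30 in KO libraries, or 1.38, 2.88 and 4.66 CPM against 2.06, 1.25 and 1.83 CPM. WT replicate 1 lay among the KO libraries, so the groups overlapped. The log2 difference was -0.79 ± 0.55 (edgeR adjusted p = 0.548), and its 95% interval of -1.97 to 0.38 spans both a large decrease and an increase. Without WT replicate 3 the log2 difference was -0.32.

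Gp5 (ENSMUSG00000047953, chromosome 16, 30307685 to 30310779, minus strand, 2197 exonic bases) encodes GPV, a thrombin substrate. It had 41, 5 and 27 counts in WT and 15, 6 and 4 in KO libraries. WT replicate 2 was as low as the KO libraries, at 0.294 CPM beside 0.966, 0.393 and 0.244 CPM. The log2 difference was -1.59 ± 0.90 (edgeR adjusted p = 0.445). Leaving out WT replicate 1 gave -0.94, and leaving out KO replicate 1 gave -2.33. Gp1bb (ENSMUSG00000050761, chromosome 16, 18620317 to 18622403, minus strand, 2087 exonic bases) encodes GPIb beta, which is disulfide-linked to GPIb alpha. It had 37, 14 and 14 counts in WT and 16, 7 and 10 in KO libraries, and KO replicate 1 lay above WT replicates 2 and 3. The log2 difference was -1.02 ± 0.77 (edgeR adjusted p = 0.591), and it was -0.32 without WT replicate 1.

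Values for Gp1bb are uncertain for a further reason. Its single merged exon shares 1902 bases (91.1%) with exons of Sept5, a septin gene on the same strand that ends inside it, and 185 bases are its own. The sources used here do not state how reads in the shared part were counted. Sept5 itself had 122, 147 and 83 counts in WT and 97, 85 and 111 in KO libraries and did not pass (log2 difference -0.27 ± 0.29, edgeR adjusted p = 0.722). With both genes summed, the log2 difference was -0.37 (adjusted p = 0.583), an alternative added after the data had been seen. Exons of the other 6 genes overlapped no other gene with a row.

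The 7 genes also passed the filter on low counts for different reasons. The filter asked for 0.65 CPM in at least 3 libraries. Vwf, Itgb3, Itga2b and Gp1ba met it in all 6 libraries. Gp9 and Gp1bb met it in 3 WT libraries and 1 KO library, and Gp5 in 2 WT libraries and 1 KO library, so these 3 entered the test through the group in which they were higher.

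**Figure D2:**
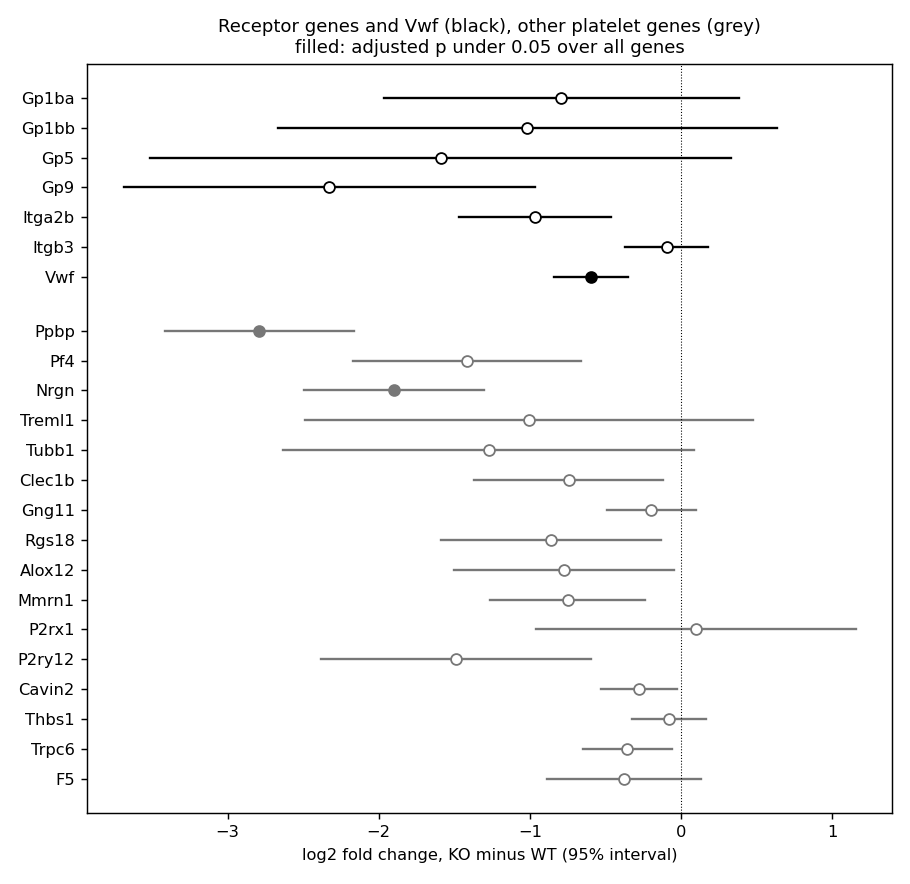
Log2 fold change of KO minus WT with its 95% interval for the 7 genes (black) and for the 16 other platelet and megakaryocyte genes tested (grey). Filled circles passed the test over all genes, which were Vwf, Ppbp and Nrgn, and the intervals of Gp1ba, Gp1bb, Gp5 and Itgb3 include 0.

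Levels of different genes were compared as CPM per kilobase of exon, and the 7 genes covered a wide range. Vwf was highest in every library, with 57.1 ± 4.99 in WT and 37.7 ± 3.73 in KO lungs, followed in every library by Itgb3 with 10.4 ± 0.624 and 9.69 ± 1.23. Gp9 (3.29 ± 0.848) and Itga2b (2.85 ± 0.1995) came next in WT lungs and did not differ beyond their spread. In KO lungs Itga2b followed Itgb3 in each library at 1.46 ± 0.358, above Gp9 at 0.647 ± 0.255. Gp1ba had 1.09 ± 0.605 in WT and 0.630 ± 0.155 in KO lungs, Gp5 0.741 ± 0.577 and 0.243 ± 0.173, and Gp1bb 0.684 ± 0.463 and 0.335 ± 0.142 over its whole exon. The order of these last 3 changed from library to library in WT lungs, and their levels overlapped.

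**Figure D3:**
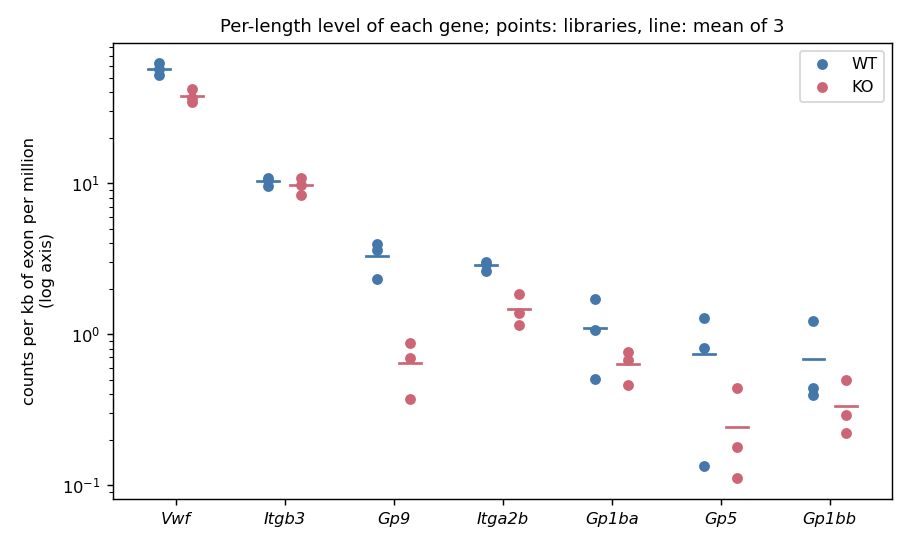
CPM per kilobase of exon (log axis) for each gene, with points for libraries and lines for the mean of 3. Vwf and Itgb3 stand above the other 5 genes in every library, and Gp9 has the widest gap between the group means.

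Other platelet genes are given beside the receptors. Of 18 further genes of platelets and megakaryocytes, 16 were tested, 2 fell, none rose and 15 had negative log2 differences, with a median of -0.76. Over all genes tested, 49% of log2 differences were negative and the median was 0.007, with 0.336% called lower and 1.12% higher. The same shares are the background for the lists that follow. These lists were put together with earlier results of these data known. WT means in the list of 18 genes reached 1451 CPM, far above the platelet chemokine genes named below. Whether platelets supply the RNA of every listed gene was not tested. Ppbp, which encodes a platelet chemokine stored in alpha-granules, had 257, 241 and 332 counts in WT and 47, 26 and 49 in KO libraries and fell by 2.79 ± 0.29 on the log2 scale (edgeR adjusted p = 0.00157). Nrgn, a calmodulin-binding protein abundant in platelets, fell by 1.90 ± 0.28 (adjusted p = 0.00814). Pf4, a second alpha-granule chemokine, averaged 21.1 ± 6.78 CPM in WT lungs against 7.87 ± 3.63 CPM in KO and did not pass (adjusted p = 0.0695).

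Of 6 defining platelet markers (Ppbp, Pf4, Treml1, Tubb1, Gp6, Clec1b), 5 were tested, and their summed level was 43.6 to 67.1 CPM in WT and 14.7 to 22.1 CPM in KO libraries, with no overlap. Treml1, a receptor of alpha-granule membranes, had a log2 difference of -1.01 ± 0.69 and the platelet tubulin gene Tubb1 of -1.27 ± 0.63 (edgeR adjusted p of 0.547 and 0.378). The podoplanin receptor gene Clec1b had -0.74 ± 0.29 (adjusted p = 0.247). Gp6, the platelet collagen receptor, had 3, 20 and 7 counts in WT and 8, 0 and 2 in KO libraries, too few to test. None of these markers was at 0 in a WT library, and in KO lungs a 0 was seen for Gp6 in replicate 2. The counts do not tell platelets from megakaryocytes resident in the lung. Whether the amount of platelet RNA accounts for the receptor genes was not tested.

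Red cell genes, which report blood left in the vessels, gave no call. Of 9 erythroid genes with a row, 7 were tested, none passed, 5 had positive log2 differences, and the median was 0.34. Their summed level was 190 to 224 CPM in WT and 184 to 356 CPM in KO libraries, with KO replicate 3 highest. Hbb-bs, a beta-globin gene, averaged 98.2 ± 10.7 CPM in WT lungs against 138 ± 52.9 CPM in KO (edgeR adjusted p = 0.356). The alpha-globin gene Hba-a2 and the heme synthesis gene Alas2 had log2 differences of 0.58 ± 0.56 and 0.34 ± 0.35.

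Endothelial genes were examined because endothelium is the main source of Vwf. Of 16 pan-endothelial genes none passed, 12 had negative log2 differences (75%, against 49% of all genes tested), and the median was -0.11. Their summed level was 6844 to 8546 CPM in WT and 6560 to 8105 CPM in KO libraries, which overlapped. Emcn (endomucin), Tie1 and Egfl7 had the smallest p-values, with log2 differences of -0.42 ± 0.13, -0.29 ± 0.12 and 0.37 ± 0.15 (edgeR adjusted p of 0.142, 0.261 and 0.269). Divided by this sum, Vwf was at 9.83, 14.6 and 12.2 CPM per 100 CPM of endothelial markers in WT and 7.29, 8.46 and 10.3 in KO libraries. On this ratio KO replicate 3 lay above WT replicate 1, and the mean ratio in KO lungs was 71.0% of that in WT lungs, where for Vwf alone the fitted level was 66.1%.

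Genes of particular lung vessels gave no call either. Among 10 genes of lung capillaries none passed, with a median log2 difference of -0.11. Ptprb, an endothelial phosphatase, had -0.51 ± 0.14 (edgeR adjusted p = 0.0909), Sema3c -0.27 ± 0.11 and Car4 0.29 ± 0.18. Among 10 genes of veins and large vessels, where Vwf is most abundant, none passed, 7 were negative (70%) and the median was -0.16. Bst1 had 0.60 ± 0.17 (adjusted p = 0.101), the venous transcription factor gene Nr2f2 -0.27 ± 0.11 and Cpe -0.47 ± 0.25. The summed level of these venous genes was 469 to 509 CPM in WT and 357 to 571 CPM in KO libraries.

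**Figure D4:**
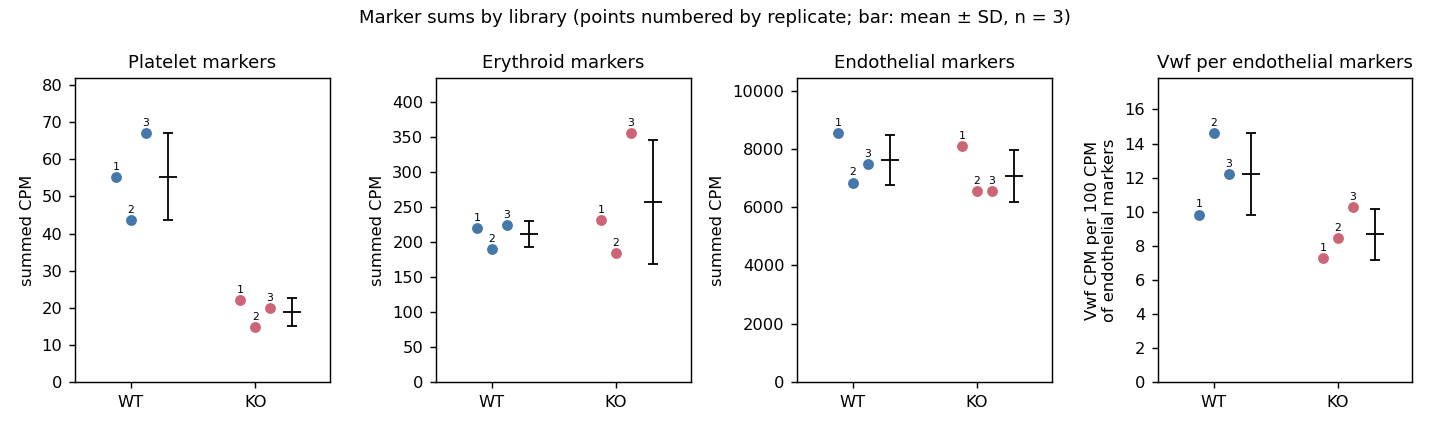
Summed CPM of the defining platelet, erythroid and pan-endothelial markers, and Vwf CPM per 100 CPM of the endothelial markers, in each library, with mean and SD. The platelet sum is separated between WT and KO lungs, and the other 3 quantities overlap.

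The genes for storing and secreting von Willebrand factor gave no call. Of 19 tested genes of Weibel-Palade bodies none passed, 9 were negative and 10 positive, and the median log2 difference was 0.00. Edn1, whose product endothelin is released from these granules, averaged 34.0 ± 6.25 CPM in WT lungs against 19.9 ± 7.19 CPM in KO (edgeR adjusted p = 0.122). Plat, the tissue plasminogen activator gene, had a log2 difference of -0.36 ± 0.13 and Vamp8, a membrane fusion gene, of 0.33 ± 0.10 (adjusted p of 0.22 and 0.141).

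Other partners of von Willebrand factor and fibrinogen were also examined. Of 9 such genes none passed, and the median log2 difference was -0.07. Fn1 (fibronectin) had -0.35 ± 0.12, Vtn (vitronectin) -0.39 ± 0.15 and Stab2, a clearance receptor, -0.30 ± 0.34 (edgeR adjusted p of 0.163, 0.227 and 0.738). Adamts13, named after its values were seen because it encodes the protease that cleaves von Willebrand factor, averaged 0.683 ± 0.592 CPM in WT lungs against 1.03 ± 0.972 CPM in KO.

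Receptors that act beside GPIb and the integrin gave no call. Of 11 tested adhesion receptor genes none passed and the median was -0.10. Fcer1g, the signalling chain of the collagen receptor and of Fc receptors, had a log2 difference of 0.54 ± 0.19, and Itgb1 of -0.20 ± 0.10 (edgeR adjusted p of 0.187 and 0.401). Of 8 tested activation receptor genes none passed, 7 were negative (87.5%, against 49% of all genes tested) and the median was -0.45. F2r, a thrombin receptor gene, averaged 390 ± 26.7 CPM in WT lungs against 298 ± 17.2 CPM in KO (adjusted p = 0.0841). F2rl3, another thrombin receptor gene, averaged 0.711 ± 0.579 CPM in WT lungs against 0.709 ± 0.405 CPM in KO. A further one, F2rl2, had too few reads to test. Whether platelets supply the RNA of these receptor genes was not tested. The ADP receptor genes P2ry12 and P2ry1 had log2 differences of -1.49 ± 0.42 and -0.94 ± 0.36 (adjusted p of 0.0996 and 0.241). All KO libraries lay below all WT libraries for 4 of these 8 genes, P2ry12, P2ry1 and F2r among them, and for 9.4% of all genes tested.

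Inside the platelet, GPIb alpha is anchored to the cytoskeleton and the integrin is switched on by talin and kindlin. Of 19 genes of integrin activation, 1 rose and none fell, and 14 log2 differences were positive, with a median of 0.14. Negative differences made up 26.3% of this list and 49% of all genes tested, and higher calls made up 1.12% of all genes tested. The gene that rose was Vav1, a guanine nucleotide exchange factor of all blood cells, from 25.8 ± 2.86 to 50.9 ± 9.87 CPM (edgeR adjusted p = 0.0144). Plcg2 and Lcp2, which leukocytes also express, had log2 differences of 0.46 ± 0.13 and 0.77 ± 0.26 (adjusted p of 0.0994 and 0.178). Of 8 macrophage genes none passed and 7 were positive (12.5% negative, against 49% of all genes tested), with a median of 0.26. Among them Marco averaged 1.99 ± 1.69 CPM in WT lungs against 8.31 ± 0.140 CPM in KO, and Csf1r and Adgre1 had log2 differences of 0.38 ± 0.11 and 0.54 ± 0.20 (adjusted p of 0.0962, 0.124 and 0.205). The summed macrophage level was 570 to 790 CPM in WT and 664 to 889 CPM in KO libraries, and its part in the values for these signalling genes and Itgb3 was not tested.

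Of 6 genes whose products bind the inner face of GPIb none passed, with a median of -0.06. Pik3r1 had a log2 difference of -0.21 ± 0.10, and the 14-3-3 genes Ywhae and Ywhaz had 0.13 ± 0.10 and -0.11 ± 0.10. Among 11 tested transcription factor genes of megakaryocytes none passed and the median was 0.00. Nfe2, which drives platelet release, averaged 4.94 ± 2.55 CPM in WT lungs against 7.83 ± 2.27 CPM in KO, and Mafk and Zfpm1 had log2 differences of 0.16 ± 0.10 and -0.18 ± 0.20 (edgeR adjusted p of 0.444, 0.527 and 0.737). Gata1 and Gfi1b had too few reads to test. Mafk averaged 247 CPM in WT lungs, far above Itga2b at 15.6 CPM. Whether megakaryocytes supply the RNA of these transcription factor genes was not tested.

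The genes most like Vwf and Itga2b across the 6 libraries were taken from 13324 genes by Pearson's r of log2(CPM + 1). Most like Vwf were Wnt2, Pcsk1, Xpc, Rasgrp3 and Fam20b, with r of 0.982 to 0.991. Most like Itga2b were Jcad, Hdac5, Cdc42bpa, Elp3 and Ntn4, with r of 0.993 to 0.998. In all 10 the KO libraries lay below the WT libraries, as in 9.4% of all genes tested. Vwf and Itga2b are separated in the same way, so a choice by r favours such genes and this count is no support. Of the 10 genes, Cdc42bpa, a kinase gene, passed the test at -0.51 ± 0.11 on the log2 scale (edgeR adjusted p = 0.0433). Lower calls made up 0.336% of all genes tested. The difference between the groups enters these coefficients, and r exceeded 0.9 for 211 genes with Vwf and 337 with Itga2b.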

How the data were processed

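Whole-lung RNA of 6 libraries (3 WT, 3 KO) was analysed. The deposited tables hold raw integer counts per Ensembl gene. The authors aligned read pairs to mm10 (GRCm38) using STAR 2.5 and counted them using HTSeq 0.6.1, as the labels' protocols and processing notes state. The sources used here do not give the annotation release, strand setting or counting mode, so reads of overlapping genes cannot be told apart. Symbols, exonic lengths and coordinates came from GENCODE M21 by exact identifier (34490 of 35275 matched). No row lacked a gene identifier.

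The contrast KO minus WT was fitted in edgeR 4.0.16 (R 4.3.3) (TMM, filterByExpr with a minimum count of 10, glmQLFit robust=TRUE, design of group alone), two-sided, adjusted by Benjamini-Hochberg over 15191 genes. SE is the absolute log2 fold change over the root of the F statistic. CPM used TMM-scaled library sizes. DESeq2 1.42.0 and limma 3.58.1 (voom) served as alternatives, with other scalings and filters, robust=FALSE, a threshold of 0.1, each library left out and the replicate number as a block. The procedure was tested on simulated counts. No 2 libraries held identical values.

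The 7 genes and the 15 other lists were chosen with earlier results of these data known. From each other list the text names genes that passed and at most the 3 with the smallest p. It also names the defining platelet markers, Sept5, Itgav, Adamts13, F2rl3 and F2rl2. Of these, Itgav, Adamts13, F2rl3 and F2rl2 were named after their values were seen. The 5 genes most like Vwf and Itga2b with mean log2 CPM from 1 upwards are named as well. Promoter sequences are from RefSeq (GRCm38.p6).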

Additional observations from a re-analysis of the deposited data

How the results depend on the processing

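The log2 differences of Vwf, Itgb3, Itga2b and Gp1ba stayed negative in every alternative. Those of Gp9, Gp1bb and Gp5 were also negative wherever they could be computed. These genes met the main filter through the WT libraries, so their direction is no support. The alternatives reuse the same libraries, and 49% of all genes tested had negative log2 differences. Of the 7 genes, 1 (Vwf) passed in the main test, 3 (Vwf, Itga2b, Gp9) passed without a filter on low counts or at a threshold of 0.1, and 2 (Vwf, Itga2b) passed with DESeq2. With 1 library left out, 0 to 2 of them passed, and the calls over all genes ranged from 24 to 578 (main 221). Over all genes, 803 were called without the filter (578 higher, 225 lower), 600 with DESeq2 (370 higher, 230 lower, so that 38.3% of calls were lower against 23.1% in the main test) and 475 at a threshold of 0.1 (315 higher, 160 lower). The cause of these changes was not tested. With the replicate number as a block, 2 of the 7 genes (Vwf, and Itga2b at adjusted p = 0.0383) and 405 genes in all were called. Deviations of same-numbered libraries correlated at r of 0.05, 0.02 and 0.03, so the numbers were not treated as pairs, and not every library correlated best with its own number. Other scalings, the stricter filter (1 CPM in 3 libraries, which left 5 of the 7 genes), limma-voom and robust=FALSE kept 1 call (Vwf). The log2 difference of Vwf per endothelial marker was -0.49, and -0.64 to -0.33 over its alternatives. Depth limits Gp1ba, Gp1bb, Gp5 and Gp9, which had 4 to 71 counts per library.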

Other observations

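The receptor genes were also divided by the summed CPM of the 6 defining platelet markers. These ratios depend on the markers summed, which include Ppbp, at 14.5% of its WT level the lowest of those tested. Ratios without Ppbp were not computed. Itga2b was at 29.7, 32.8 and 23.9 CPM per 100 CPM of these markers in WT and at 45.8, 42.9 and 37.7 in KO libraries, with KO above WT. Gp9 was at 5.74, 4.71 and 5.19 in WT and at 3.50, 2.23 and 3.07 in KO libraries, with KO below WT. Its KO values rest on 12, 5 and 10 counts. Gp9 met the filter on low counts through the WT libraries, so its direction is no support for a difference between receptor genes. Gp1ba was at 2.49, 6.60 and 6.95 in WT and at 9.33, 8.48 and 9.20 in KO libraries. Gp5 overlapped, at 0.673 to 5.11 in WT and 1.23 to 4.37 in KO libraries.

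Per length, Gp9 stood at 119.7%, 88.8% and 134.5% of Itga2b in WT and at 47.3%, 32.2% and 50.3% in KO libraries. Gp1ba stood at 16.9% to 58.4% of Itga2b in WT and at 39.7% to 48.9% in KO libraries. Itga2b stood at 24.2% to 30.4% of Itgb3 in WT and at 10.6% to 22.0% in KO libraries. These ratios are values without a test, chosen with the data in view, and those of Gp9 carry the same limit from the filter.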
